A study of Mus musculus with 15 samples.

Results

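Fibronectin (Fn1), thrombospondin-1 and thrombospondin-2 (Thbs1, Thbs2), tenascin-C (Tnc), versican (Vcan) and the matricellular protein SPARC (Sparc) are 6 secreted matrix proteins, taken here by gene identifier as 6 of the 27179 genes of the count table. Fn1 and Thbs1 were selected on their measured fold change: an earlier analysis of these data called them higher in tumor than in normal Lrig1-low cells. The values of that contrast are therefore given as a description, without a test. Of the 6 genes, 5 passed the filter on low counts, and Sparc did not.

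Fibronectin is a large dimer that cells assemble into fibrils through integrins, and these fibrils carry other matrix proteins. Thrombospondins and tenascin-C are matricellular proteins, which change how cells adhere to the matrix without being part of its frame. Versican is a proteoglycan that binds hyaluronan, and SPARC binds collagen. In the intestine fibroblasts, smooth muscle and other stromal cells are the main source of these proteins, and epithelial cells usually make little of them.

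RNA was sequenced from cells of Lrig1-eGFP-IRES-CreERT2 x APCmin mice, so the animals of every group carried a fluorescent reporter allele of Lrig1, which marks intestinal stem and progenitor cells, and the Apc mutation that gives intestinal tumors. Cells positive for EpCam and negative for CD45 and CD31 were sorted by the reporter into Lrig1-high and Lrig1-low fractions. The 4 groups are Lrig1-low and Lrig1-high cells from normal colonic epithelium (4 libraries each), Lrig1-low cells from colonic tumors (4 libraries) and Lrig1-high cells from colonic tumors (3 libraries). The normal epithelium came from mutant mice too, and no wild-type group was analysed here. The labels give neither an age, an animal nor a pool for a library, so the spread between libraries may be technical in part. Library S15, labelled tumor Lrig1-low, held 357 counts and 0 counts for each of the 6 genes, and was left out. The other 14 libraries held 9508505 to 17296536 counts.

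The labels were checked first. Levels are in CPM, the counts of a gene per 1000000 counts of the library, with library sizes scaled by TMM factors. The sort marker Epcam ranged from 605 to 1509 CPM. The gene for CD31, Pecam1, stayed at or under 1.85 CPM, and the gene for CD45, Ptprc, stayed at or under 11.2 CPM except in S08 (46.1 CPM). Lrig1 itself went against the label in 4 libraries: S10, labelled normal Lrig1-high, had 36.4 CPM, S09, labelled normal Lrig1-low, had 85.5 CPM, S07, labelled tumor Lrig1-low, had 141.7 CPM, and S08, labelled tumor Lrig1-high, had 55.7 CPM. Every direction below rests on the labels as deposited. The summed level of 14 small intestine markers was 2391 to 10720 CPM and that of 13 colon markers was 236 to 799 CPM, so the colon is named by the labels only. The share of mitochondrial ribosomal RNA ran from 12.9% to 42.8%, the highest being S12, labelled tumor Lrig1-high.

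Fn1 and Thbs1 were the most abundant of the 6 genes in tumor libraries, and both were higher in every tumor library than in every normal library. The same held for 0.886% of the genes tested, and the Lrig1-low libraries among these chose both genes. Fn1 lies on chromosome 1 (mm10, 71585523 to 71653171, minus strand) and was counted over 46 exon blocks of 8312 bases in all. In normal Lrig1-low cells Fn1 was at 0 CPM in S01, 0.984 in S05, 0.594 in S09 and 0.700 in S13. In normal Lrig1-high cells it was at 0 CPM in S02, 0.331 in S06, 7.03 in S10 and 0.507 in S14. Apart from S10, normal cells thus held at most 11 reads of Fn1 per library. In tumor Lrig1-low cells Fn1 was at 115.2 CPM in S03, 20.4 in S07 and 245.1 in S11. In tumor Lrig1-high cells it was at 28.2 CPM in S04, 64.2 in S08 and 36.5 in S12. The lowest tumor library, S07, stood above the highest normal library, S10.

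Thbs1, whose product binds CD36 and CD47 and activates latent TGF-beta, lies on chromosome 2 (118111922 to 118127133, plus strand, 22 exon blocks of 5802 bases). In normal Lrig1-low cells Thbs1 was at 1.06 CPM in S01, 2.77 in S05, 14.7 in S09 and 2.26 in S13. In normal Lrig1-high cells it was at 29.7 CPM in S02, 11.8 in S06, 12.7 in S10 and 7.46 in S14. Unlike Fn1, Thbs1 had reads in every normal library, and its groups of normal cells overlapped only through S09. In tumor Lrig1-low cells it was at 196.4 CPM in S03, 94.7 in S07 and 508.0 in S11. In tumor Lrig1-high cells it was at 56.4 CPM in S04, 202.6 in S08 and 162.1 in S12. The tumor libraries thus spanned 56.4 to 508.0 CPM, above the normal range of 1.06 to 29.7 CPM. The plot of levels by library shows these points for all 6 genes.

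**Figure D1:**
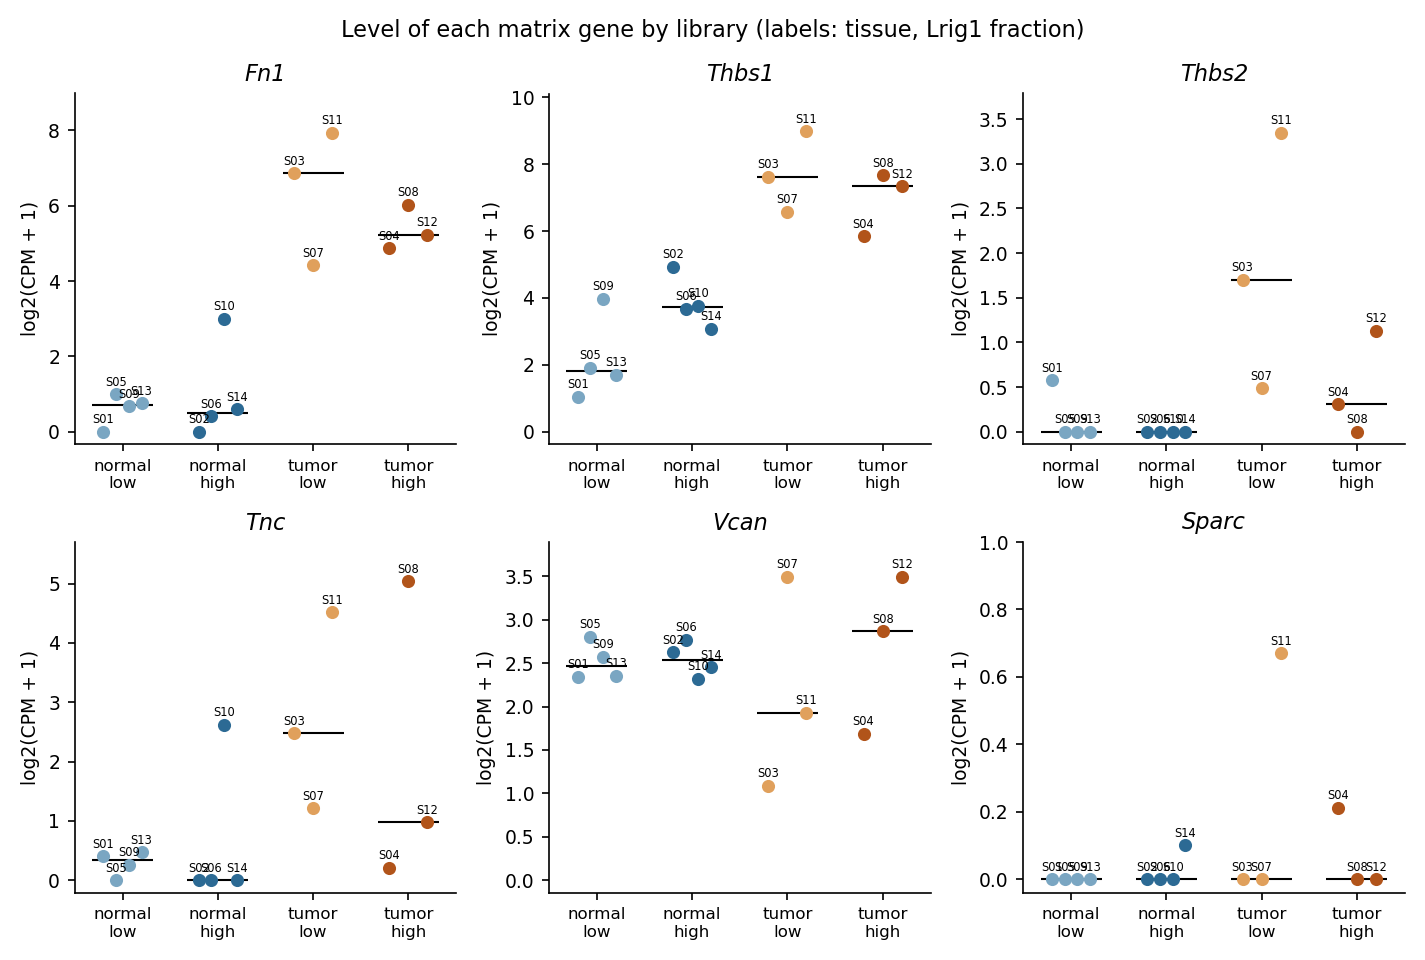
Level of each of the 6 genes as log2(CPM + 1) on the vertical axis, for the 14 libraries by labelled tissue and Lrig1 fraction, with a point per library and a line at the group median. The 6 tumor libraries lie above the 8 normal libraries for Fn1 (20.4 CPM or more against 7.03 or less) and Thbs1 (56.4 or more against 29.7 or less). The Lrig1-low libraries among them chose both genes, and the panels have different vertical ranges.

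Between tumor and normal Lrig1-low cells, the contrast that picked both genes, the mean level of Fn1 was 126.9 ± 112.8 CPM (SD, n = 3) against 0.570 ± 0.414 CPM (SD, n = 4). The edgeR log2 fold change was 7.78 ± 1.41 (SE). For Thbs1 the means were 266.3 ± 215.3 CPM and 5.20 ± 6.39 CPM (SD, n = 3 and 4), and the log2 fold change was 5.66 ± 0.91 (SE). Both genes are among the 43 genes called higher in this contrast, which are 0.31% of the 13883 genes tested, and nothing is read from that count because the contrast chose them. Every tumor library exceeded every normal library of this fraction for Fn1, Thbs1 and Tnc, and for 9.95% of the genes tested. Nothing is read from that count either, since it comes from the contrast of the choice.

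The Lrig1-high groups share no library with that contrast. The 6 genes were still chosen with earlier results of these data known, so these libraries are not an independent check. The labels name no animal, so it is not known whether both fractions came from the same mice. All groups also share an estimate of the spread in the fit. Fn1 was at 43.0 ± 18.8 CPM in tumor and 1.97 ± 3.38 CPM in normal Lrig1-high cells (SD, n = 3 and 4), a log2 fold change of 4.43 ± 1.20 (SE, edgeR adjusted p = 0.355). Thbs1 was at 140.3 ± 75.5 CPM and 15.4 ± 9.78 CPM, a log2 fold change of 3.19 ± 0.82 (SE, edgeR adjusted p = 0.355). Neither difference passed the threshold of 0.05 after adjustment over all genes. The tumor and normal libraries of this fraction did not overlap for 2 of the 5 genes tested, Fn1 and Thbs1, against 3.37% of all genes tested. Fn1 had few reads in normal libraries and passed the filter on low counts through tumor libraries. Nothing is read from this count. Taking both fractions together, the separation of all 6 tumor from all 8 normal libraries was found for 0.886% of the genes tested, a count that includes the libraries that chose both genes. In this contrast edgeR called none of the 13883 genes higher (0%), although 1559 (11.2%) had an unadjusted p under 0.05. Of the 5 genes tested, 3 were among them: Fn1, Thbs1 and Thbs2. Thbs2 had 0 counts in normal Lrig1-high cells, so no fitted fold is given for it and nothing is read from its p. DESeq2 called 114 genes (0.821%), 1 of the 6 among them, and limma-voom with sample weights called 0. The gene that DESeq2 called was Thbs1, at 3.22 with an adjusted p of 0.0142, and over the 23 alternatives run for Thbs1 the adjusted p ranged from 0.0142 to 0.746.

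Single libraries moved these calls. Without S04, the tumor Lrig1-high library lowest in Fn1 and Thbs1, Thbs1 passed the threshold in edgeR (log2 fold change 3.56, adjusted p = 0.0377), as did 1.82% of the genes in the higher direction. Fn1 passed it (6.87, edgeR adjusted p = 0.0416) in a fit on the 10 libraries without S07 to S10. Those left out were chosen by their Lrig1 level, so p-values of that fit are not read as a test. The fit kept S04 and S12 as its tumor Lrig1-high libraries, and it called 0.0858% of the genes higher. Across the 23 alternatives, Fn1 stayed between 4.02 and 7.77 and Thbs1 between 2.67 and 3.72 in this contrast.

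The difference between the fractions in the tumor over normal fold change was tested as an interaction. Lrig1-high minus Lrig1-low gave -3.36 ± 1.69 for Fn1 (SE, edgeR adjusted p = 0.690) and -2.47 ± 1.14 for Thbs1 (SE, edgeR adjusted p = 0.685), neither past the threshold. Part of that difference is the contrast that chose both genes, so its size is not independent of the choice.

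The fractions were then set against each other within each tissue. These contrasts each share a group of libraries with the one that chose Fn1 and Thbs1. In normal epithelium Lrig1-high over Lrig1-low gave a log2 fold change of 1.55 ± 0.76 for Thbs1 and 1.80 ± 1.22 for Fn1 (SE, edgeR adjusted p = 1 for both). The Fn1 value rests on S10, and it was -1.03 without that library. Thbs1 was past the threshold in 2 of 23 alternatives, limma-voom with sample weights (2.69, adjusted p = 0.0417, with 30% of all genes called) and the 10 libraries without S07 to S10 (3.03, adjusted p = 0.0362, with 3.39% called higher), and its adjusted p ranged from 0.0362 to 1. Without S09 and the other libraries whose Lrig1 level went against the label, the Thbs1 levels were 1.06 to 2.77 CPM in normal Lrig1-low cells and 7.46 to 29.7 CPM in normal Lrig1-high cells. In tumors the difference was -1.56 ± 1.17 for Fn1 (edgeR adjusted p = 0.755) and -0.92 ± 0.84 for Thbs1 (edgeR adjusted p = 0.795), and the fractions overlapped for both genes. In each of these 2 contrasts edgeR called none of the genes higher (0%) or lower. At an unadjusted p under 0.05 there were 499 genes (3.59%) in normal epithelium and 1042 (7.51%) in tumors, with 0 of the 6 in either. DESeq2 called 1 and 22 genes (0.0072% and 0.158%), and limma-voom called 4169 and 0.

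**Figure D2:**
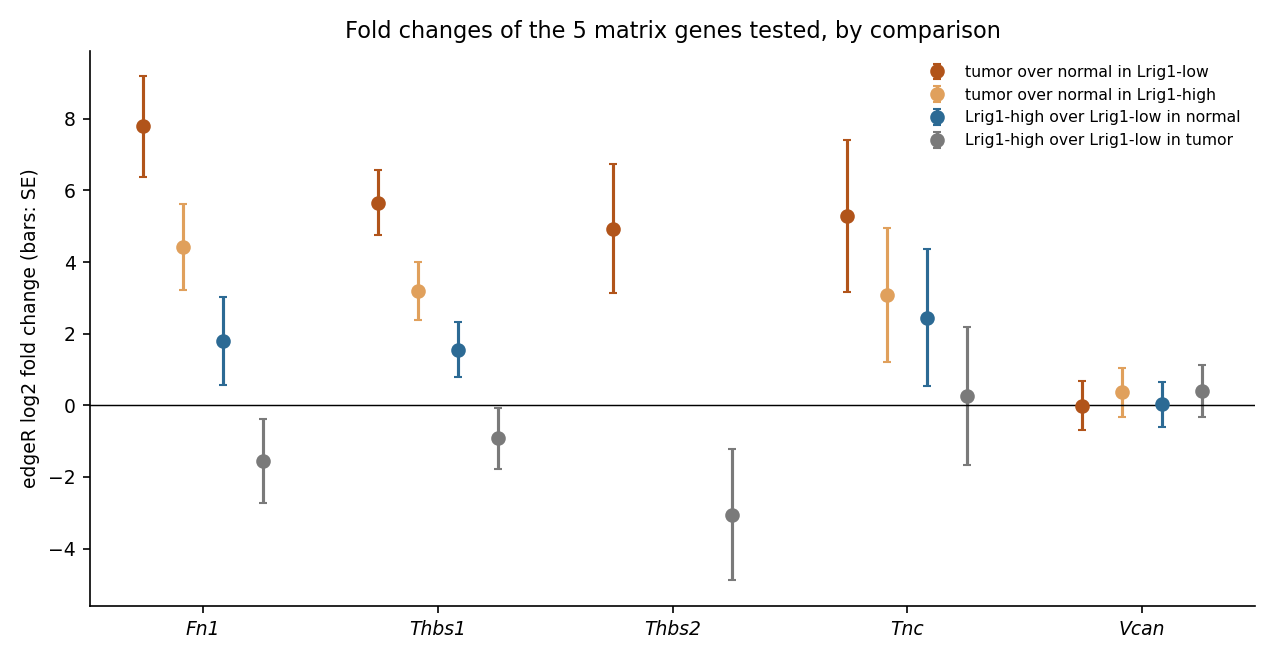
Log2 fold changes from edgeR (vertical axis, bars show the standard error) of the 5 genes that passed the filter, in 4 comparisons. Fn1 and Thbs1 stand highest in both tumor over normal comparisons, at 7.78 and 5.66 in Lrig1-low and 4.43 and 3.19 in Lrig1-high cells, Vcan stays near 0, and Thbs2 has no point in the comparisons with normal Lrig1-high cells, where it had 0 counts.

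Per exon length Thbs1 exceeded Fn1 in all 14 libraries. The ratio of CPM per kilobase, Thbs1 over Fn1, was 2.44 to 6.65 in the 6 tumor libraries. In the 6 normal libraries with reads of Fn1 it ran from 2.58 in S10 to 51.0 in S06. The order of the other genes differed between tissues. In normal Lrig1-low cells the mean level per kilobase was 0.897 ± 1.10 CPM for Thbs1, 0.326 ± 0.061 for Vcan, 0.0685 ± 0.0498 for Fn1, 0.0322 ± 0.0242 for Tnc and 0.0207 ± 0.0413 for Thbs2 (SD, n = 4). In tumor Lrig1-low cells it was 45.9 ± 37.1 CPM for Thbs1, 15.3 ± 13.6 for Fn1, 1.31 ± 1.56 for Tnc, 0.666 ± 0.782 for Thbs2 and 0.323 ± 0.332 for Vcan (SD, n = 3). Neighbours in either order differed by less than the larger of their SDs, except Vcan and Fn1 in normal cells and Fn1 and Tnc in tumor cells. Vcan stood above Fn1 per kilobase in 7 of the 8 normal libraries, all but S10, and below it in all 6 tumor libraries.

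Tnc, whose product is a large hexamer laid down in remodelling tissue, was low in most libraries and high in a few (chromosome 4, 63959785 to 64047015, minus strand, 26 exon blocks of 7100 bases). In normal Lrig1-low cells it was at 0.326, 0, 0.198 and 0.389 CPM in S01, S05, S09 and S13. In normal Lrig1-high cells it was at 0 CPM in S02, S06 and S14 and at 5.15 CPM in S10. In tumor Lrig1-low cells Tnc was at 4.58 CPM in S03, 1.32 in S07 and 21.9 in S11, and in tumor Lrig1-high cells at 0.159 in S04, 31.9 in S08 and 0.973 in S12. S08 alone held 350 of the 361 reads of its group, and S10 held all 85 of its group. The log2 fold change of tumor over normal was 5.28 ± 2.12 (SE) in Lrig1-low cells, given without a test, and 3.08 ± 1.88 (SE, edgeR adjusted p = 0.535) in Lrig1-high cells. The second value was -1.22 without S08. Between the fractions Tnc differed by 2.45 ± 1.91 in normal epithelium (edgeR adjusted p = 1) and by 0.25 ± 1.93 in tumors (edgeR adjusted p = 0.981). The first was -4.68 without S10, and the second was -4.04 without S08. Without S10 normal Lrig1-high cells held 0 reads of Tnc, so the size of -4.68 has no meaning as a fold change.

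Thbs2, a homolog of thrombospondin-1 without its TGF-beta activating motif, had few reads, most of them in tumor libraries (chromosome 17, 14665500 to 14694262, minus strand, 22 exon blocks of 5922 bases). The 6 tumor libraries held 177 reads and the 8 normal libraries held 6, all of them in S01. In tumor Lrig1-low cells Thbs2 was at 2.25 CPM in S03, 0.402 in S07 and 9.18 in S11. In tumor Lrig1-high cells it was at 0.238 CPM in S04, 0 in S08 and 1.19 in S12. S11 held 124 of the 177 tumor reads. The log2 fold change of tumor over normal in Lrig1-low cells was 4.93 ± 1.80 (SE), given without a test, and S01 at 0.489 CPM stood above S07. In Lrig1-high cells the tumor libraries held 14 reads, 11 of them in S12, and the normal libraries 0. The pooled ratio was 8.71 against a floor of 3 reads over the normal group. It leaves out the spread between libraries, and the groups overlapped because S08 was at 0 too. Within tumors Thbs2 differed by -3.05 ± 1.84 between Lrig1-high and Lrig1-low cells (SE, edgeR adjusted p = 0.710).

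Vcan kept to a narrow range in normal cells (chromosome 13, 89655310 to 89742512, minus strand, 15 exon blocks of 14689 bases). It had reads in all 14 libraries, between 16 and 179. In normal Lrig1-low cells it was at 4.08, 5.996, 4.95 and 4.12 CPM in S01, S05, S09 and S13, and in normal Lrig1-high cells at 5.17, 5.83, 4.001 and 4.49 CPM in S02, S06, S10 and S14. The 8 normal libraries thus kept to a range of 4.001 to 5.996 CPM. In tumor Lrig1-low cells Vcan was at 1.13 CPM in S03, 10.3 in S07 and 2.81 in S11, and in tumor Lrig1-high cells at 2.22 in S04, 6.30 in S08 and 10.3 in S12. The tumor libraries lay on both sides of the normal range. S03 and S11, the highest 2 libraries for Fn1, were among the 3 lowest for Vcan. The log2 fold change of tumor over normal was -0.01 ± 0.68 in Lrig1-low cells (SE, no test) and 0.36 ± 0.67 in Lrig1-high cells (SE, edgeR adjusted p = 0.833). Between the fractions it was 0.03 ± 0.63 in normal epithelium (edgeR adjusted p = 1) and 0.39 ± 0.72 in tumors (edgeR adjusted p = 0.905). With standard errors of 0.63 to 0.72 on the log2 scale, no difference in Vcan was detectable at this number of libraries.

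Sparc, an abundant product of fibroblasts and endothelium, was close to absent (chromosome 11, 55394501 to 55420080, minus strand, 10 exon blocks of 2299 bases). It had 11 reads over the 14 libraries: 8 in S11, 2 in S04, 1 in S14 and 0 in the other 11. A library with 0 reads allows a level of up to 0.172 to 0.324 CPM, the worth of 3 reads, and this limit covers counting error only. In bulk sorted cells, fewer cells of a type and less RNA per cell cannot be told apart.

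Promoter sequences from the RefSeq table of build GRCm38.p6 matched 4 of the 6 genes, not Fn1 and Thbs1. The 250 bases before the start are printed for Thbs2 and Tnc, with 124 of 177 tumor reads in S11 for the first and most in S08 and S11 for the second, and for Vcan, which had reads in every library. For Tnc the table holds another start, and the upstream one is shown. They run 5′ to 3′ in the direction of the gene at chr17:14694263-14694512, chr4:64047016-64047265 and chr13:89742513-89742762, all on the minus strand. Capitals mark matches on either strand to the TATA box, searched as TATAAA, to the box named for its letters CCAAT, and to the SP1 motif, searched as GGGCGG.
Thbs2: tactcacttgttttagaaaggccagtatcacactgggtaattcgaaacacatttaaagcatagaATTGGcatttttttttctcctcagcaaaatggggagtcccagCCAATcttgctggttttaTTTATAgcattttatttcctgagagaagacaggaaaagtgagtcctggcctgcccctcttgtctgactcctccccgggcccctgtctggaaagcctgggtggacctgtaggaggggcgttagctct
Tnc: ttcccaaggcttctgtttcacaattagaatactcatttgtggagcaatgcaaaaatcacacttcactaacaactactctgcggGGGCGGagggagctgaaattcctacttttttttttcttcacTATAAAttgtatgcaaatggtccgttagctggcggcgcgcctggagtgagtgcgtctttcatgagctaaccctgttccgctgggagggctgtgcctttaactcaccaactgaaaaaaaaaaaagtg
Vcan: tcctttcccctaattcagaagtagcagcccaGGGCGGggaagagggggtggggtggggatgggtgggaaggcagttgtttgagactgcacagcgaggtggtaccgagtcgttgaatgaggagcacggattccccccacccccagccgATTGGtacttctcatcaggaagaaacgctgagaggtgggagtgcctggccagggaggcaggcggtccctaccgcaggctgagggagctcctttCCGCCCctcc
The TATA box letters stood 126 bases before the start in Thbs2, on the reverse strand, and 126 bases before it in Tnc, on the forward strand, and were absent from Vcan, and 12.4% of the 32851 promoters in the table held them in the same 250 bases. CCAAT occurred in Thbs2 at 186 and 144 bases and in Vcan at 103 bases before the start, and in 33.8% of all promoters. From the other start of Tnc the same letters stood at 205 bases, so the distance depends on the start taken. GGGCGG occurred in Tnc at 167 bases (246 from the other start) and in Vcan at 219 and 10 bases, and in 32.7% of all promoters. The share of G and C was 46.8% in Thbs2, 44.8% in Tnc and 62.4% in Vcan. No match was found in these windows, or in that of Sparc, for AP-1 (TGANTCA, in 6.75% of promoters), TEAD (CATTCC, 12.6%) or TCF and LEF (CTTTGA, 13.8%). None of these motifs overlapped another, and a match is a description of letters only.

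The genes most like each of the 5 tested genes were found by Pearson correlation of log2(CPM + 1) over the 14 libraries, among 8694 genes with a mean of at least 10 CPM. For Fn1 they were Tspan5 (r = 0.970), Anxa1 (0.962), Sting1 (0.959), Foxq1 (0.956) and Camsap2 (0.952). Sting1 was at 0.895 to 4.73 CPM in normal and 11.1 to 59.5 CPM in tumor libraries. For Thbs1 they were Atp11a (r = 0.972), Sh3pxd2b (0.967), Plxnb1 (0.961), Foxa1 (0.959) and Phlda1 (0.955), with Phlda1 at 6.93 to 20.8 CPM in normal and 43.5 to 144.4 CPM in tumor libraries. For Thbs2 they were Adam10 (r = 0.953), Tnks2 (0.923), Eif4g3 (0.920), Dusp4 (0.915) and Fosl2 (0.904). For Tnc they were Krt18 (r = 0.923), Gnai2 (0.903), Prkaa1 (0.901), Crtc3 (0.899) and Hid1 (0.895). Those of Vcan reached lower values: Vps13b (r = 0.868), Trpm7 (0.788), Rpph1 (0.782), Ptpn2 (0.775) and Phf5a (0.772). The points share the split into tumor and normal libraries and each library's depth, so these values describe the 14 libraries only.

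Markers of other cell types were measured beside these genes, since stromal cells are a known source of matrix proteins. Of 16 fibroblast markers, 2 passed the filter on low counts, and the collagens Col1a1, Col1a2 and Col3a1 reached at most 0.859, 0.242 and 0.311 CPM in any library. Lum and Twist1 had 0 counts. The summed fibroblast level was 0.805 to 2.58 CPM in normal Lrig1-low, 0.0631 to 10.1 in normal Lrig1-high, 1.32 to 28.1 in tumor Lrig1-low and 0 to 1.51 in tumor Lrig1-high libraries. Pdgfra, a receptor of fibroblasts, made up most of the high values, at 26.1 CPM in S11, 8.67 in S10 and 5.42 in S03. S11 and S10 were also the highest of their groups for Fn1. So was S08, with Fn1 at 64.2 CPM and Pdgfra at 0. A link between the levels of these genes was not tested.

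The endothelial list of 13 genes reached higher levels. Its summed level was 8.32 to 13.9 CPM in normal Lrig1-low, 8.39 to 51.3 in normal Lrig1-high, 27.4 to 223.4 in tumor Lrig1-low and 14.1 to 59.5 in tumor Lrig1-high libraries. Cdh5, which encodes VE-cadherin, was at 154.9 CPM in S11, 31.97 in S03, 30.2 in S10, 26.6 in S12, 24.4 in S08, 8.80 in S07 and 3.24 CPM or less in the other 8 libraries. Flt1, a VEGF receptor, was at 23.8 CPM in S11, 18.6 in S08, 8.17 in S03, 4.37 in S10, 2.93 in S07 and 1.031 CPM or less in the other 9. Vwf, the von Willebrand factor, was at 0.155 to 1.12 CPM in normal Lrig1-low, 1.45 to 5.15 in normal Lrig1-high, 3.33 to 21.4 in tumor Lrig1-low and 1.30 to 7.03 in tumor Lrig1-high libraries, and Tek, an angiopoietin receptor, reached 14.6 CPM in tumor Lrig1-low and 4.30 CPM in the other libraries. The log2 fold changes of tumor over normal Lrig1-low cells were 5.98 ± 2.13 for Cdh5, 5.51 ± 2.11 for Flt1, 4.21 ± 0.88 for Vwf and 2.47 ± 1.25 for Tek (SE, description only). Of the 8 endothelial genes tested, 6 were positive in that contrast and 2 negative, Pecam1 at -0.54 and Lyve1 at -0.77. In Lrig1-high cells 3 of the 8 were positive and 5 negative, with a median of -0.24. The highest library was S11 for Cdh5, Flt1, Vwf and Tek, as for Fn1 and Thbs1. Esam reached 8.14 CPM, in S06, Lyve1 4.28, Egfl7 2.83 and Pecam1 1.85 CPM, while Kdr, Tie1, Plvap and Robo4 stayed at or under 0.4225 CPM and Emcn had 0 counts.

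Of 12 genes of smooth muscle, myofibroblasts and pericytes, Des, Cnn1 and Actg2 had 0 counts. The summed level was 3.05 to 5.30 CPM over the normal libraries, 4.31 to 16.1 in tumor Lrig1-low and 4.60 to 45.5 in tumor Lrig1-high libraries, where S12 held Myh11 at 23.5 and Acta2 at 12.8 CPM. The 18 leukocyte genes summed to 3.46 to 57.2 CPM with the highest in S08, the library highest in Tnc, where Ptprc alone made 46.1 CPM. The 6 platelet genes, checked because platelets store thrombospondin-1, summed to 15.03 to 40.5 CPM in normal and 8.16 to 21.9 CPM in tumor libraries, nearly all of it Gp1bb at 7.88 to 39.8 CPM, while Itga2b was at 2.86 CPM or less, Pf4 at 0.370 or less and Ppbp at 0. The 5 mesothelial genes summed to 5.70 CPM or less and the 9 genes of enteric glia and neurons to 3.26 to 15.03 CPM, both with the highest value in S11. The 10 epithelial genes summed to 3631 to 16790 CPM. The part of these other cell types in the levels of the 6 genes was not tested.

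**Figure D3:**
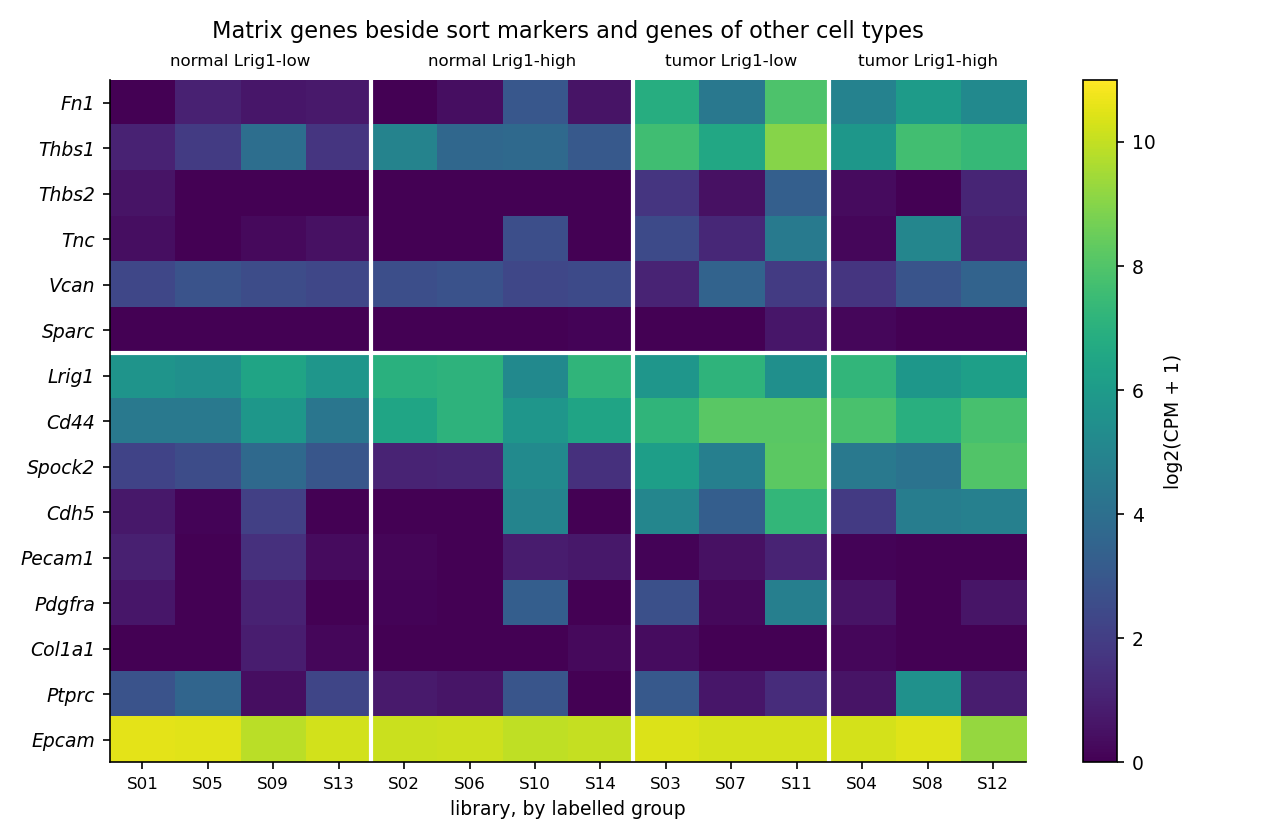
Level of the 6 genes (above the white line) beside Lrig1, 2 matrix-related genes, sort markers and genes of other cell types, as log2(CPM + 1) in colour, for the 14 libraries in columns by labelled group. Over the 6 tumor columns Fn1 runs from 20.4 to 245.1 CPM and Thbs1 from 56.4 to 508.0 CPM. Cdh5 is high in S11 and at 24.4 to 31.97 CPM in S03, S10, S12 and S08, and Col1a1 (0.859 CPM or less) and Pecam1 (1.85 CPM or less) are dark throughout.

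The rest of the matrix pathway was read from 6 lists of genes around the 6, of which 67 genes were tested. Among the receptors (23 of 26 tested) are integrins, syndecans, CD36, CD47 and the hyaluronan receptor CD44. Of the 67, 1 gene, Cd44, was called higher in tumor over normal Lrig1-low cells, at 3.07 ± 0.44 (SE, description only). Over all genes tested 43 (0.31%) were called higher there, and nothing is read from the 1 of 67. Cd44 was at 144.3 to 294.2 CPM in tumor Lrig1-low, 120.1 to 231.2 in tumor Lrig1-high, 53.2 to 135.6 in normal Lrig1-high and 18.9 to 54.9 CPM in normal Lrig1-low libraries. In Lrig1-high cells its tumor over normal value was 1.08 ± 0.42 (SE, edgeR adjusted p = 0.384). The most abundant receptors there were Calr, the calreticulin that binds thrombospondin-1 at the cell surface, at -0.94 ± 0.62 (edgeR adjusted p = 0.565), and its partner Lrp1, at -0.35 ± 0.43 (edgeR adjusted p = 0.743). The median log2 fold change of the 23 receptors was 0.17 in Lrig1-low and 0.48 in Lrig1-high cells, beside 0.02 and -0.04 over all genes tested.

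Ptprz1, a phosphatase receptor of tenascins, was singled out after its values were seen. It was the only one of the 67 list genes whose 6 tumor libraries all exceeded its 8 normal libraries, at 2.99 to 25.9 CPM against 1.09 CPM or less, and 1 of 67 (1.49%) is near the share of 0.886% over all genes. In Lrig1-high cells its log2 fold change was 4.81 ± 1.39 (SE, edgeR adjusted p = 0.355).

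Within the SPARC family (4 of 7 genes tested) Spock2, a testican proteoglycan, and Smoc2 were the most abundant. Spock2 was at 25.9 to 301.5 CPM in tumor Lrig1-low, 17.1 to 254.7 in tumor Lrig1-high, 3.59 to 12.6 in normal Lrig1-low and 1.14 to 37.8 CPM in normal Lrig1-high libraries, the last value in S10. Its tumor over normal log2 fold change in Lrig1-high cells was 3.21 ± 1.31 (SE, edgeR adjusted p = 0.390), and that of Smoc2, a marker of intestinal stem cells, was -0.12 ± 0.73 (edgeR adjusted p = 0.952). The family's median was 2.02 in Lrig1-low and -0.31 in Lrig1-high cells. Among the thrombospondin and tenascin families (3 of 6 tested), Thbs4 was at 2.61 CPM or less and Comp at 2.59 CPM or less in every library. Their values in Lrig1-high cells were -3.09 ± 1.44 (edgeR adjusted p = 0.448) and 2.32 ± 1.47 (edgeR adjusted p = 0.548), and the median of the 3 genes was -0.97 in Lrig1-low and -3.09 in Lrig1-high cells.

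Of the 43 other matricellular and adhesive glycoproteins, 18 were tested, and 14 of the 18 had a positive log2 fold change in tumor over normal Lrig1-low cells and 11 in Lrig1-high cells. Their medians were 2.21 and 0.29. Tgfbi, a secreted adhesion protein induced by TGF-beta, was higher in normal Lrig1-low libraries, at 62.2 to 114.9 CPM, than in tumor Lrig1-low libraries, at 9.89 to 54.4 CPM, and in Lrig1-high cells its value was -0.95 ± 0.60 (SE, edgeR adjusted p = 0.546). Mfge8, a secreted protein that binds integrins, was at 15.9 to 45.8 CPM in normal and 51.9 to 96.9 CPM in tumor Lrig1-low libraries, and its value in Lrig1-high cells was 0.15 ± 0.40 (edgeR adjusted p = 0.889).

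Enzymes of matrix assembly and cross-linking (10 of 18 in the table tested) had medians of 1.78 in Lrig1-low and 0.30 in Lrig1-high cells. Tgm2, the transglutaminase that cross-links fibronectin, was at -0.93 ± 0.39 in Lrig1-high cells (SE, edgeR adjusted p = 0.395) and Plod3, a lysyl hydroxylase of collagen, at 0.52 ± 0.27 (edgeR adjusted p = 0.467). The list of hyaluronan enzymes, lecticans and versican proteases (9 of 20 tested) had medians of 0.27 and -0.11. Its most abundant genes, Cemip2 and Hyal2, which act in the breakdown of hyaluronan, were at 0.37 ± 0.27 (edgeR adjusted p = 0.593) and 0.62 ± 0.47 (edgeR adjusted p = 0.608) in Lrig1-high cells. Across the 6 lists edgeR called 0 of 67 genes in tumor over normal Lrig1-high cells, and DESeq2 and limma-voom also called 0. There 14 had an unadjusted edgeR p under 0.05 (20.9%, against 11.2% of all genes). Of these, Adamts5, Fras1 and Tgm2 were lower in tumors and the others higher, and Adamts5 had 0 counts in tumor Lrig1-high cells. The lists were chosen with earlier results of these data known, so nothing is read from this share. Between the fractions edgeR called 0 of 67 in either tissue. At an unadjusted p under 0.05 there were 4 genes in normal epithelium (5.97%, against 3.59% of all genes) and 2 in tumors (2.99%, against 7.51%). DESeq2 called 0 in both. Limma-voom called 20 (29.9% of the lists, against 30% of all genes) in normal epithelium and 0 in tumors.

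**Figure D4:**
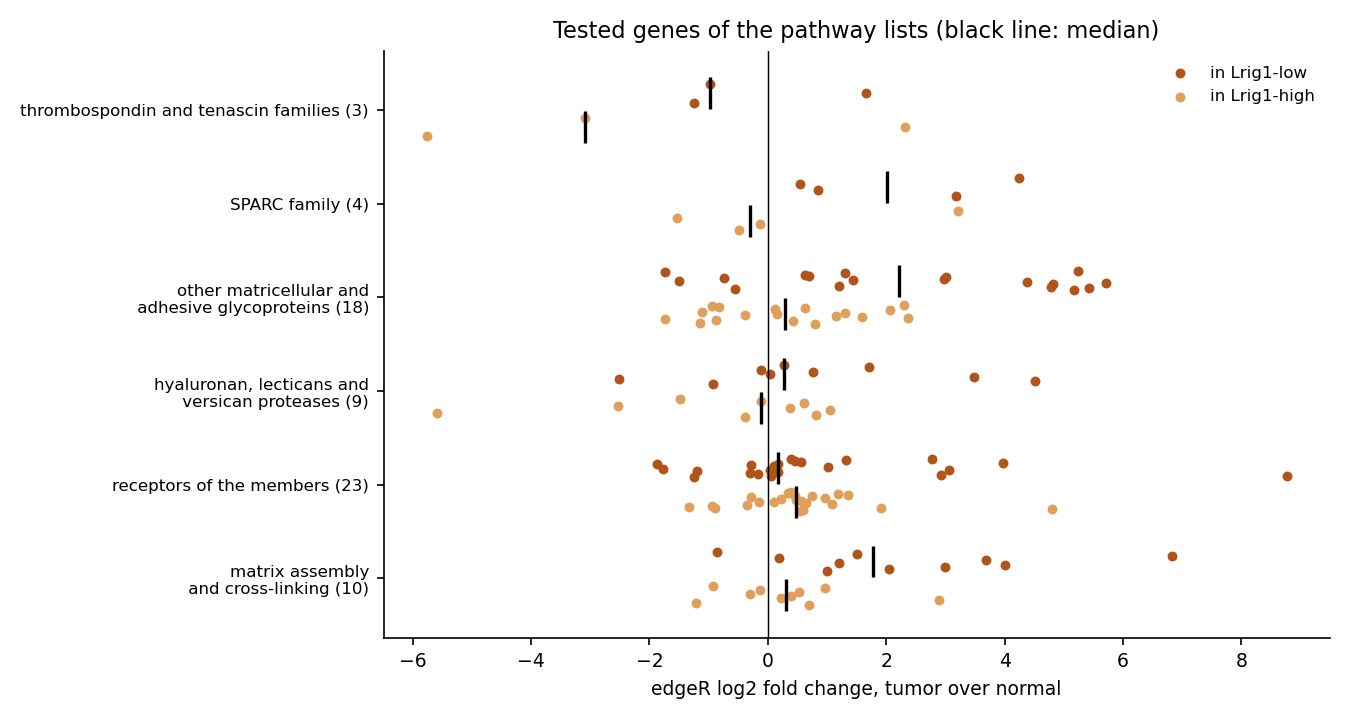
Log2 fold changes of tumor over normal from edgeR (horizontal axis) for the tested genes of 6 pathway lists, with the number tested in brackets, dark points for Lrig1-low and light points for Lrig1-high cells, and a black line at each median. The medians in Lrig1-low cells run from -0.97 to 2.21, and the lowest light points, at the far left, are Tnr and Adamts5, which had 0 counts in tumor Lrig1-high cells.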

How the data were processed

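RNA sequencing counts of 15 libraries were used. Per the submitters' processing notes, Trimmomatic, HISAT2, Subread and featureCounts were used with the mm10 build. Per the file headers, featureCounts 1.5.3 made the deposited raw counts over the exons of RefSeq genes, with the strand option set to reverse and no option for pairs, so both ends of a fragment count. Exon lengths come from the same deposited table. Symbols were matched to 25275 gene identifiers from RefSeq and 18 from GENCODE, and 1886 had none.

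Groups came from the titles. The library S15 (under 1000 counts) was left out. One edgeR 4.0.16 fit (R 4.3.3, quasi-likelihood F test, TMM, filterByExpr, 14 libraries, a coefficient per group) tested 13883 genes, with Benjamini-Hochberg adjustment over all of them and calls at an adjusted p under 0.05. The SE is the absolute log2 fold change divided by the square root of F. The script was tested on simulated data. Alternatives used DESeq2 1.42.0, limma 3.58.1 (voom with sample weights), other filters, scalings and library sets.

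The 6 genes, the lists and the marker lists were chosen with earlier results of these data known. Named genes are the 6, the label checks, up to 3 per direction of each list past the threshold by smallest adjusted p (where none passed, the 2 with the highest mean CPM) and the 5 most correlated genes of each of the 5 tested. Other names, among them Ptprz1, Cdh5, Flt1, Vwf, Pdgfra and Spp1, were chosen after their values were seen.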

Additional observations from a re-analysis of the deposited data

Results flagged for a closer look

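In groups of 4 libraries, a library was singled out when its gap to the nearest of the others was large for the range of the group (Dixon's criterion), and 10 groups with a nonzero range were examined for the 6 genes. Chance singles out about 1 group in 20, a rate that does not hold where 3 of 4 libraries are at 0 and any read in the other is enough. In 5 groups a library stood apart, and 3 of these, Thbs2, Tnc and Sparc, are of that kind. S10, labelled normal Lrig1-high, was high for Fn1 at 7.03 CPM and for Tnc at 5.15 CPM, and it is 1 of the 4 libraries whose Lrig1 level goes against the label. S09, labelled normal Lrig1-low and another of those 4, was high for Thbs1 at 14.7 CPM. S01, labelled normal Lrig1-low, was high for Thbs2 at 0.489 CPM, which is 6 reads against 0 in the other 3. S14, labelled normal Lrig1-high, was high for Sparc at 0.0724 CPM, which is 1 read and below the floor of 3 reads.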

How the results depend on the processing

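Among the 6 genes, 2, 0, 0 and 0 were called in edgeR in tumor over normal Lrig1-low, tumor over normal Lrig1-high, Lrig1-high over Lrig1-low in normal epithelium and the same in tumors. The first contrast chose Fn1 and Thbs1, so nothing is read from its counts, and edgeR called 0.31% of all genes higher in it. There, 4 of the 6 were called by limma-voom, which called 10% of all genes. With only the groups compared in the fit 1 was called, beside 61 genes higher and 7 lower over all genes. With blocks of neighbouring library numbers (S01 to S04 and so on) 1 was called, beside 90 higher and 5 lower. Leaving a library out gave 0 to 2 (0 without S01, S05, S11 or S13, 1 without S04 or S09). In the second, 1 was called by DESeq2 (0.821% of all genes) and 1 in the 10 libraries without S07 to S10 (0.0858% called higher). Leaving a library out gave 0 to 1 (1 without S04, with 1.82% called higher). In the third, 1 was called by limma-voom (30% of all genes) and 1 in the 10 libraries (3.39% called higher). In the tumor fractions 0 were called in any alternative run.

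Fold changes that changed sign were those of Vcan, Tnc and Fn1, and the cause was not tested. For Vcan in tumor over normal Lrig1-low they were 0.0038 with DESeq2, 0.0019 with its size factors and -1.28 to 0.43 when a library was left out. Vcan in tumor over normal Lrig1-high gave -0.54 with limma-voom and -0.23 to 0.76 with a library left out, and between the fractions -0.072 to 0.17 in normal epithelium and -0.16 to 1.67 in tumors. Fn1 in Lrig1-high over Lrig1-low normal cells gave -1.001 with limma-voom, -0.99 in the 10 libraries and -1.03 to 2.21 with a library left out. Tnc there gave -2.54 with limma-voom, -4.71 in the 10 libraries and -4.68 to 2.87 with a library left out. Tnc between the tumor fractions gave -1.92, -4.50 and -4.04 to 1.90 in the same order, and in tumor over normal Lrig1-high -1.22 to 10.2 with a library left out. In fits without S10, among them the 10 libraries, normal Lrig1-high cells held 0 reads of Tnc. The size of a Tnc value against that group has no meaning in those fits. Fn1 and Thbs1 kept a positive tumor over normal fold change in both fractions in all 23 alternatives run. Their tumor and normal libraries did not overlap with CPM on raw totals or on totals without mitochondrial ribosomal RNA. The Lrig1-low libraries chose both genes, so nothing is read from the part of those libraries in either statement. Counts over all genes moved more. In tumor over normal Lrig1-low cells edgeR called 43 genes higher and 3 lower, against 545 and 161 with DESeq2, 1060 and 329 with limma-voom, 432 and 20 in the 10 libraries, 65 to 90 higher with DESeq2 size factors, other filters, the block or S15 included, and 0 to 226 higher and 0 to 59 lower with a library left out. In tumor over normal Lrig1-high cells the counts were 0 and 0, against 74 and 40 with DESeq2, 12 and 0 in the 10 libraries, and 263 and 544 without S04. Between normal fractions they were 2057 and 2112 with limma-voom and 474 and 322 in the 10 libraries, and between tumor fractions 6 and 16 with DESeq2, 45 and 3 in the 10 libraries and 41 and 324 without S04. The Lrig1 level chose the 10 libraries, so p-values of that fit are not read as a test. The planned fit without S12 is the one that leaves that library out.

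No paired analysis was possible because each library has its own number and the labels tie none to an animal. Tnc, Thbs2 and Sparc rest on few reads outside 1 to 3 libraries, and depth limits what can be said of them.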

Other observations

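Across the 67 tested genes of the pathway lists, 35 had their highest level in S11, labelled tumor Lrig1-low, a library that held the highest level of 15.3% of all genes tested. It was also the highest library for Fn1, Thbs1, Thbs2 and Sparc. Spp1, which encodes the matricellular protein osteopontin, was at 48.5 CPM there, 19.3 in S03, 13.7 in S08, 11.1 in S12 and 7.03 in S10, against 1.59 CPM in S04 and 0.897 CPM or less in the other 8 libraries. Tnc was above 4 CPM in S03, S08, S10 and S11, which are 4 of those 5 libraries.

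Npnt, which encodes nephronectin, an integrin ligand of epithelial basement membranes, was at 3.91 to 38.4 CPM in tumor Lrig1-low libraries and at 1.62 to 2.22 CPM in tumor Lrig1-high libraries, and at 4.43 CPM or less in normal libraries. Both genes were chosen after their values were seen. Between tumor fractions, Lrig1-high over Lrig1-low, the log2 fold change was -3.27 ± 1.13 for Npnt (SE, edgeR adjusted p = 0.655) and -1.37 ± 1.75 for Spp1 (adjusted p = 0.857). EdgeR called neither in any comparison. In tumor over normal Lrig1-low cells, DESeq2 called both, among 706 of the 13883 genes tested. Limma-voom called Npnt there, among 1389 genes (10%). Nothing is read from these calls, since both genes were chosen after their values were seen.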
